A study of Bos indicus x Bos taurus with 11 samples.

Results

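Of the 27398 rows in the authors' table of RNA read counts, 5288 (19.3%) were loci that carry no gene name but a number from transcript assembly (MSTRG) and that lie on chromosomes 1 to 29 or on an unplaced scaffold. They were taken by that prefix and by chromosome alone, not by level or group difference. Such a row exists only where aligned reads gave a transcript model, so read coverage had a part in which loci are listed. Of these assembled loci, 5205 lay on chromosomes 1 to 29 and 83 on 41 unplaced scaffolds. A further 226 assembled loci of the X chromosome and 22 of the mitochondrial genome were not among them, and 21862 rows were annotated genes. The RNA came from primary skin fibroblasts of fetuses at day 105 of gestation, F1 crosses of the cattle breeds Angus (Bos taurus taurus) and Brahman (Bos taurus indicus), with 1 library per fetus. The control group (CON_B) comprised 5 fetuses conceived by artificial insemination (2 females, 3 males). The large offspring syndrome (LOS) group comprised 6 fetuses (3 females, 3 males) conceived by assisted reproduction that were heavier than nearly all controls, so conception method and overgrowth cannot be told apart in this contrast. The labels describe no treatment beyond the conception method, and all cultures were grown in the same serum-containing medium.

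Transcript assembly joins aligned reads into transcript models and gives a locus a name of its own when the models cannot be assigned to a known gene. Such loci can hold long noncoding RNAs, antisense RNAs, enhancer transcripts, extensions of a gene past its annotated end, unannotated exons or pieces of unspliced introns. Libraries made from total RNA after removal of ribosomal RNA keep intronic and non-polyadenylated RNA, which libraries selected for poly(A) tails mostly lose.

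Total counts ran from 12084822 to 19297167 per library and did not differ between the groups beyond their spread (two-sided exact permutation test over 462 splits, p = 0.193). Summed over 12 fibroblast genes, the level was 59843 to 69566 CPM (counts scaled to a common library size, with factors from trimmed means of M values, TMM) in controls and 58103 to 72470 in LOS. All 12 had a row and none was at 0 throughout. The summed levels of other cell types were low in controls and LOS: 1.63 to 5.31 and 1.74 to 5.59 CPM for keratinocyte genes (4 of 5 with a row), 1.77 to 3.34 and 0.98 to 2.69 for endothelial genes (4 of 4), 0.543 to 1.48 and 0.604 to 0.985 for leukocyte genes (3 of 4), and 0 to 0.494 and 0 to 0.226 for muscle genes (2 of 4). The melanosome gene PMEL, the sole gene with a row among 4 pigment and Schwann cell markers, varied from 3.95 to 166 CPM over the controls and from 7.77 to 45.3 over the LOS libraries. In bulk RNA, fewer cells of a type and less RNA per cell cannot be told apart.

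The assembled loci were short. Their span from Start to End had a median of 483 bp (quartiles 271 and 1558.5 bp), against a median of 15554.5 bp for annotated rows. The shortest were exactly 200 bp long, a length shared by 34 loci, and 1642 (31.1%) were under 300 bp. A further 1973 loci spanned 300 to under 1000 bp, 1223 spanned 1 to under 10 kb, 417 spanned 10 to under 100 kb, and 33 were longer still. The span includes any introns, because the table gives no exons, so levels of loci of different structure are not compared per length of RNA. Both strands were about equally common, with 2683 loci on the plus strand (50.7%) and 2605 on the minus strand. Few loci overlapped one another (157, 2.97%).

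**Figure D1:**
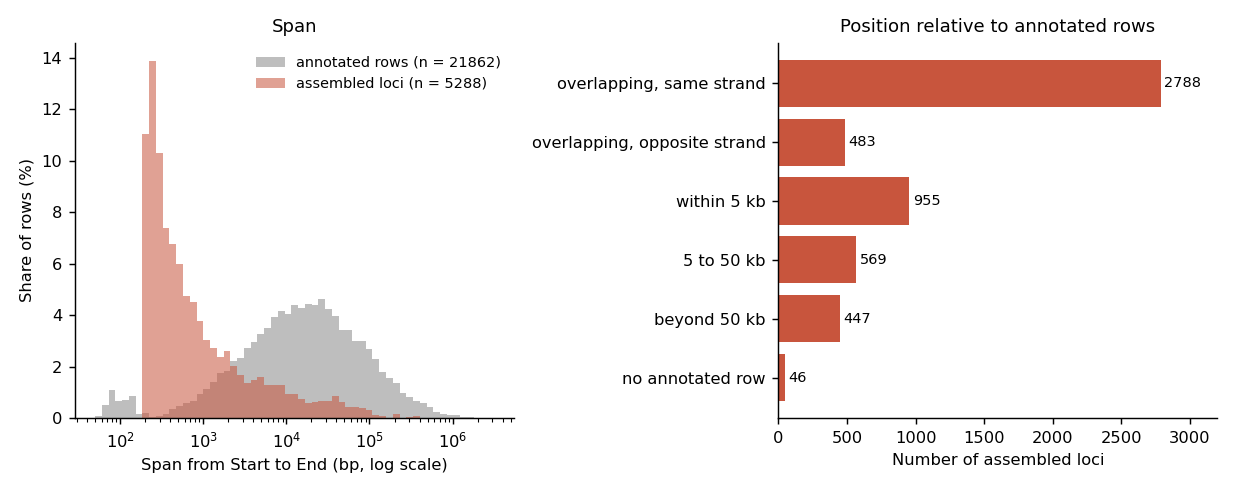
Left, share of rows (%) by span in bp (log scale) for 5288 assembled loci and 21862 annotated rows; the medians are 483 and 15554.5 bp. Right, number of assembled loci by position relative to the annotated rows of the same table; loci that overlap an annotated row on the same strand are the most numerous class (2788).

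Most of the loci did not lie between genes. By Start and End, 3271 of 5288 (61.9%) overlapped the span of an annotated row and 3066 (58.0%) lay wholly inside one, so these loci are unnamed rather than outside the annotated gene spans. The overlap was on the same strand for 2788 loci (52.7%) and on the opposite strand alone for 483 (9.13%). Of the 2017 loci outside every annotated span (38.1%), 955 lay within 5 kb of an annotated row, 569 lay 5 to 50 kb away, 447 lay further than that, and 46 were on a scaffold with no annotated row. The median distance was 5498 bp over the 1971 loci that had an annotated row on their scaffold, and the largest was 2899160 bp. Distances refer to rows of this table and to build ARS-UCD1.2, so a gene without a row would not be seen.

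Loci close to a gene lay mostly past its end. Among the 955 loci within 5 kb, 572 (59.9%) were downstream of the nearest gene on its own strand, 144 were downstream on the other strand, 125 were upstream on the other strand and 114 were upstream on the same strand. Beyond 5 kb the downstream same-strand share was 33.3% and the upstream same-strand share 25.6%. The median span was 647 bp for loci opposite to a gene, 539 bp within 5 kb, 501.5 bp for same-strand overlap, 414 bp at 5 to 50 kb and 314 bp beyond 50 kb. The most remote loci were thus also the shortest class, and 46.5% of them were under 300 bp.

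Overlapping loci were concentrated in some genes. As the nearest row they shared 1746 annotated rows, of which 1623 were protein coding and 107 were lncRNA. Of these hosts, 1201 held 1 locus, 545 held 2 or more and 102 held 5 or more. NAALADL2 held the most, with 45 loci in 1563824 bp on chromosome 1. AUTS2 held 37, BMPR1B, a receptor of bone morphogenetic proteins, held 36, FAM155A held 34, SMYD3, a lysine methyltransferase, held 31, ESRRG, an orphan nuclear receptor, held 29, and PDE4D, a cyclic AMP phosphodiesterase, held 28. These hosts span 449004 bp (BMPR1B) to 1574890 bp (PDE4D), far above the annotated median. Per 100 annotated rows, assembled loci were most frequent on chromosomes 6 (43.8), 20 (41.4), 1 (41.2) and 9 (40) and least frequent on chromosomes 19 (14.0), 29 (14.6), 25 (16.6) and 18 (16.8).

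Most loci were faint, and most had a count above 0 in every library. The mean count over the 11 libraries had a median of 11.002 (quartiles 4.55 and 36.5). Reads were seen in all 11 libraries for 3911 loci (74.0%), and 10 or more in all 11 for 1835 (34.7%). By contrast 1085 loci (20.5%) reached 10 counts in no library. A mean of 100 counts or more was reached by 606 loci and of 1000 or more by 45. Signal from 1 fetus alone was rare: among 4907 loci with 20 or more counts in all, 2 had 80% or more of their summed CPM in 1 library (0.0408%), against 13 of 15400 annotated rows (0.0844%). These were MSTRG.6326, inside ELAVL3 on chromosome 7, with 96.4% of its CPM in control 3 on 30 counts, and MSTRG.14261, 8081 bp from PHETA1 on chromosome 17, with 80.2% in LOS 2 on 24 counts. Both were named after their values were seen. Assembled loci have a row only where reads gave a transcript model, whereas annotated rows come from the gene annotation. The shares of loci and annotated rows thus do not compare like with like.

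Together the loci took 5.69% to 7.31% of all counts in a library. The share was 6.43%, 7.27%, 5.69%, 7.01% and 6.21% in controls 1 to 5. In LOS it ran from 5.85% (LOS 1) through 7.31% (LOS 2), so the ranges overlapped. The means were 6.52% ± 0.633 (SD, n = 5) in controls and 6.69% ± 0.618 (SD, n = 6) in LOS (difference 0.163 percentage points, exact permutation p = 0.662, two-sided). Without control 3, the library with the lowest share, the difference was -0.0446. By position, loci on the strand of an overlapping gene took 2.28% of all counts, those 5 to 50 kb away 1.68%, those within 5 kb 1.62%, those opposite to a gene 0.733% and those beyond 50 kb 0.309%. These shares rest largely on few loci and do not describe a typical locus of a class. MSTRG.18815, within 5 kb, averaged 13134 CPM over all libraries. MSTRG.21660, MSTRG.22828 and MSTRG.22827, all 5 to 50 kb away, averaged 8478, 3857 and 2511 CPM. Other classes also hold loci of very high level.

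The number of loci that reached 10 counts was 2953 ± 271 (SD, n = 5) in controls and 2694 ± 177 (SD, n = 6) in LOS, a difference of -259.7 (exact permutation p = 0.0996, two-sided). Without LOS 6 the difference was -318.4 (exact permutation p = 0.0317). After counts were scaled to the smallest library total the numbers were 2491 ± 114 and 2456 ± 145 (exact permutation p = 0.677). Annotated rows with 10 or more counts moved the same way, from 13374 ± 310 in controls to 13033 ± 166 in LOS (exact permutation p = 0.0455), and after scaling their difference was -138.8 (exact permutation p = 0.0952). Loci with any count numbered 4943 ± 54.9 in controls and 4866 ± 36.2 in LOS, a difference of -77.4 (exact permutation p = 0.0303). LOS libraries were shallower on average, and the part of depth in these differences was not tested beyond this scaling of counts.

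The library-to-library variation of the loci was set beside that of annotated rows in the same range of CPM. Between 0.5 and 1 CPM the median SD of log2(CPM + 0.5) over the 11 libraries was 0.378 for assembled loci and 0.425 for annotated rows. From 2 to under 5 CPM the values were 0.342 and 0.375. From 5 to under 20 CPM they were 0.334 for 563 loci and 0.247 for 3875 annotated rows, and from 20 CPM 0.316 for 187 loci and 0.188 for 6310 annotated rows. The median SD of the loci was thus below that of annotated rows from 0.5 to under 5 CPM and above it from 5 CPM. The range from 20 CPM has no upper bound, so loci and annotated rows in it were not matched in level.

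A set of 10 loci carried most of the reads. They took 64.8% to 71.3% of all counts in assembled loci in each library, or 4.49% ± 0.408 of all counts in controls and 4.58% ± 0.483 in LOS. MSTRG.18815, a locus of 325 bp (chr23:25224255-25224579, plus strand) 232 bp upstream of the glutathione transferase gene GSTA4 and on the other strand, was the highest. Its levels in controls 1 to 5 were 12641, 15197, 12459, 13347 and 12508 CPM, and in LOS the lowest, median and highest were 10218, 13788 and 14794 CPM. The ranges overlapped in part, with LOS 1 and LOS 6 (10218 and 11199 CPM) below every control. GSTA4 itself stood at 36.1 CPM in controls and 34.9 CPM in LOS.

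MSTRG.21660 (chr29:43671615-43681585, plus strand, 9971 bp) averaged 8604 ± 879 CPM in controls and 8372 ± 889 in LOS, while its nearest annotated row, the lncRNA LOC112444862 at a distance of 12993 bp, was at 0.0277 and 0.101 CPM. Of the 10 loci with the highest mean CPM, 3 span under 1000 bp, against 68.4% of all loci. MSTRG.7888 covers 297 bp inside TMEM245 on chromosome 8 and averaged 6387 ± 612 and 6780 ± 1169 CPM, and MSTRG.18279 covers 233 bp inside ERC2 on chromosome 22 and averaged 3704 ± 667 and 4186 ± 490 CPM. Their hosts were at 39.5 and 41.3 CPM (TMEM245) and at 1.84 and 1.30 CPM (ERC2), so in both cases a short locus far exceeded the whole host row in reads.

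MSTRG.22828 and MSTRG.22827, neighbours on unplaced scaffold Un_NW_020192089v1, averaged 3582 ± 476 and 2105 ± 502 CPM in controls and 4085 ± 993 and 2849 ± 450 CPM in LOS. MSTRG.8949 on chromosome 10 averaged 3178 ± 321 and 3835 ± 874 CPM. MSTRG.9100, inside the ribosome quality control gene NEMF, averaged 1374 ± 165 and 1449 ± 329 CPM. MSTRG.4212 on chromosome 5 lies 90008 bp from PLEKHG7 and averaged 1052 ± 67.7 and 1036 ± 151 CPM. In each of these 5 the control and LOS ranges overlapped.

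MSTRG.9662, a long locus (chr11:858290-1072167, plus strand, 213878 bp), was the tenth. It stood at 727, 480, 1044, 610 and 667 CPM in controls 1 to 5 and at 756, 1112 and 1521 CPM (lowest, median, highest) in LOS. All 6 LOS libraries were above the control median, but control 3 exceeded 3 of them. Its log2 fold change was 0.65 ± 0.23 (SE, edgeR quasi-likelihood test, unadjusted p = 0.0166, Benjamini-Hochberg adjusted p = 0.932). Of these loci MSTRG.22827 also had an unadjusted p under 0.05 (edgeR quasi-likelihood test, log2 fold change 0.44 ± 0.18, unadjusted p = 0.0294, adjusted p = 0.932).

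**Figure D2:**
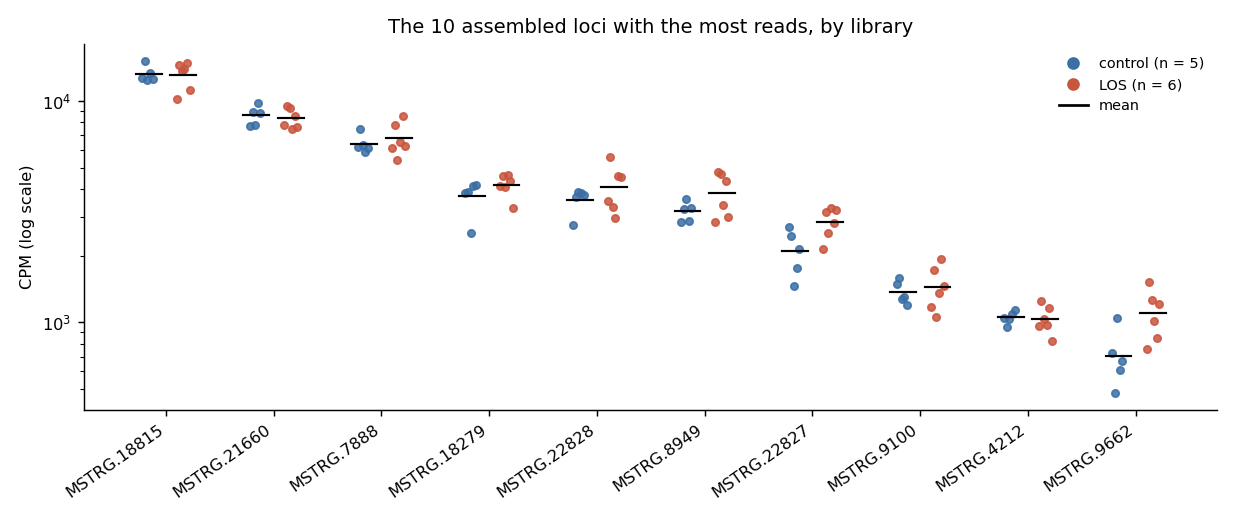
Level (CPM, log scale) of the 10 assembled loci with the highest mean CPM, with 1 point per library for 5 control and 6 LOS fetuses and lines at the group means. In each locus the control and LOS points overlap, and MSTRG.18815 is highest at about 13134 CPM over all libraries.

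The contrast of LOS with control asks whether RNA from unnamed loci differs between overgrown and control fetuses. No assembled locus passed an adjusted p of 0.05 among the 3133 tested (edgeR quasi-likelihood test with sex as a term, Benjamini-Hochberg adjustment over all 16946 rows tested; smallest adjusted p 0.932), and no row of the whole table did (0.0%). The other 2155 loci were too faint to pass the filter on low counts. Limma voom called 0 loci (0.0% of all rows). DESeq2 called 1, MSTRG.21533 (adjusted p = 0.0386), against 5 of all rows (0.0295%).

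At an unadjusted p under 0.05 edgeR gave 181 loci (5.78%) against 4.44% of all rows. Of these 119 were higher in LOS (3.8% against 2.48%) and 62 were lower (1.98% against 1.95%). The count moved by over 1.5 times when any of 4 libraries was left out, and the share over all rows moved the same way. Without LOS 1 it was 316 loci (10.3% against 10.9% of all rows; smallest adjusted p among the loci 0.0905). Without LOS 6 it was 115 (3.72% against 2.69%), without control 1 it was 116 (3.45% against 3.13%) and without LOS 2 it was 117 (3.79% against 2.68%). The median log2 fold change of the tested loci was 0.0035 against -0.0007 for all rows, and 50.3% against 49.8% were above 0. A change of 1 or more in size was fitted for 81 loci (2.59% against 2.63%).

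Levels in the groups did not overlap for 8 loci (0.255% against 0.23% of all rows), 6 with all LOS libraries higher (0.192% against 0.0944%) and 2 with all lower (0.0638% against 0.136%). Loci on the strand of an overlapping gene had a median log2 fold change of 0.04 and those within 5 kb of a gene one of -0.08. A dependence on sex was not called for any row (edgeR interaction of group and sex, 0 of 16946; smallest adjusted p among the loci 0.921). At an unadjusted p under 0.05 the interaction gave 188 loci (6.0% against 4.89% of all rows).

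Of the 8 loci with the smallest p in each direction, 7 that were higher and 8 that were lower in LOS are given as a description, since edgeR called none of them (adjusted p = 0.932 for each). MSTRG.21533 (chr29:37713324-37713876, minus strand, 553 bp) lies 232230 bp from VPS37C, a subunit of an endosomal sorting complex. It stood at 13.0, 14.0, 13.0, 12.3 and 13.3 CPM in controls 1 to 5 and at 17.2, 18.1 and 24.3 CPM (lowest, median, highest) in LOS. All LOS libraries were above all controls, with LOS 3 and LOS 6 highest and the controls close together. The log2 fold change was 0.61 ± 0.12 (SE, unadjusted p = 0.000463), while VPS37C was at 15.1 CPM in controls and 14.6 CPM in LOS.

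MSTRG.4559 (chr5:48481145-48485610, minus strand) lies inside MSRB3, a methionine sulfoxide reductase, on the same strand. Controls were at 6.15, 4.99, 5.64, 5.70 and 5.58 CPM and LOS libraries at 6.57, 8.99 and 12.1 CPM (lowest, median, highest). The groups did not overlap, although LOS 1 lay just above control 1 (log2 fold change 0.66 ± 0.17). MSTRG.17763 (chr21:56621881-56633014, minus strand) lies inside FBLN5, an elastic fibre protein. It covered 14.5 to 19.8 CPM in the controls and 21.7 to 40.4 CPM in LOS, with LOS 2 and LOS 3 far above the others (0.66 ± 0.19). FBLN5 itself was at 260 CPM in controls and 325 CPM in LOS (log2 fold change 0.34).

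MSTRG.5618, inside the protocadherin gene PCDH7, was at 2.47 to 3.87 CPM in controls and 3.77 to 6.24 CPM in LOS (0.59 ± 0.17). Its lowest LOS libraries reached into the control range.

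Another 3 sit together on unplaced scaffold Un_NW_020192294v1, which also holds AMELX, the amelogenin gene that is X-linked in mammals. MSTRG.22877 had a log2 fold change of 1.03 ± 0.27, MSTRG.22880 of 0.83 ± 0.25 and MSTRG.22879 of 0.77 ± 0.23. Of 9 assembled loci on this scaffold 6 were tested, 5 of them with a fold change above 0 (range -0.20 to 1.03) and 4 at an unadjusted p under 0.05 by edgeR. Over all rows tested these shares were 49.8% and 4.44%. The scaffold was picked out by the small p of the 3 loci, so these counts are a description and no separate support. The summed level of the 6 tested loci was 134, 158, 134, 162 and 100 CPM in controls 1 to 5 and 126, 286, 220, 249, 177 and 372 CPM in LOS 1 to 6. LOS 1 thus lay within the control range and the other LOS libraries above it. Correlations between pairs of the 6 loci had a median of 0.62 and a lowest value of -0.46, so the loci are not independent observations and do not all move together.

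**Figure D3:**
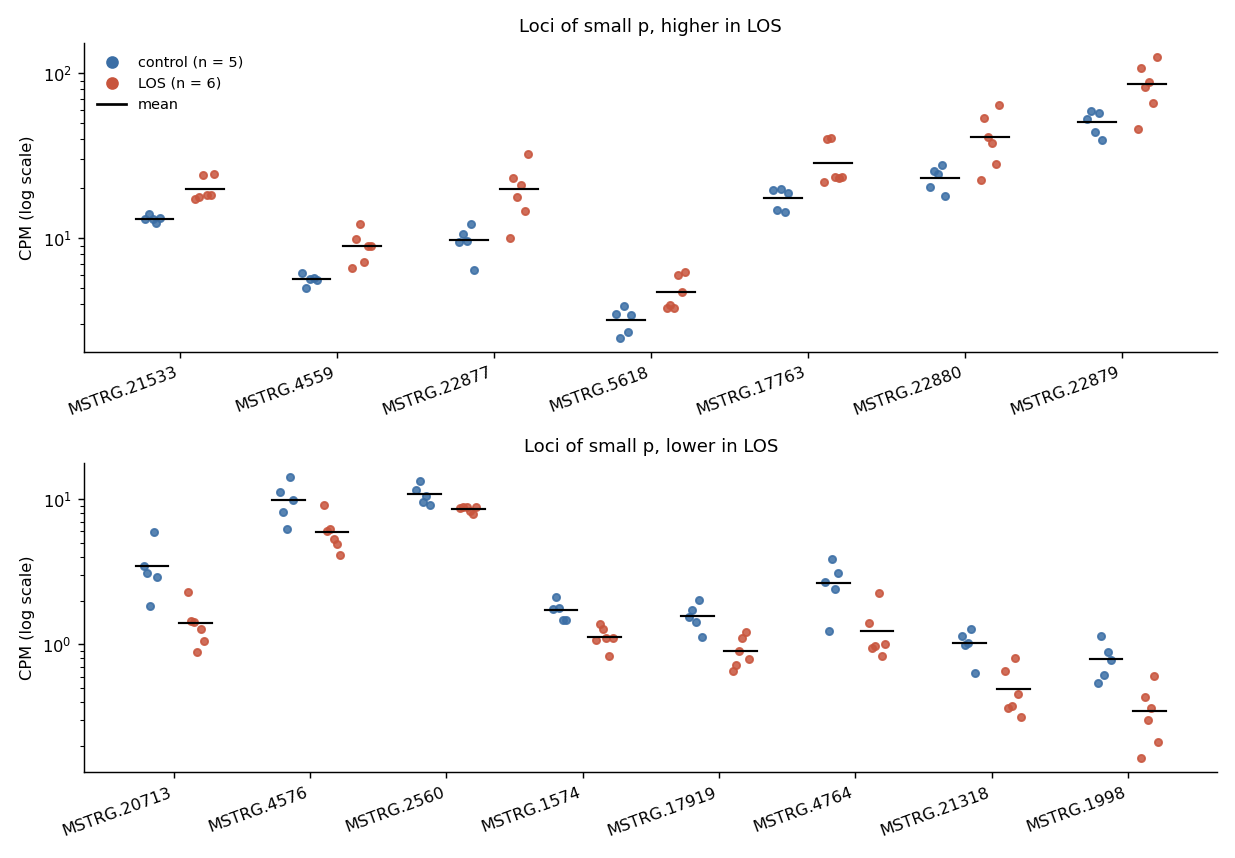
Level (CPM, log scale) of 7 assembled loci higher in LOS (top) and 8 lower in LOS (bottom), from those with the smallest p, with 1 point per library for 5 control and 6 LOS fetuses and lines at the means. MSTRG.21533, MSTRG.4559 and MSTRG.17763 (top) and MSTRG.2560 and MSTRG.1574 (bottom) show groups that do not overlap; none passes an adjusted p of 0.05 by edgeR.

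Among loci lower in LOS, MSTRG.20713 (chr26:49243242-49245510, minus strand) lies inside the transcription factor gene EBF3 on its strand. It was at 3.44, 3.11, 1.83, 5.90 and 2.89 CPM in controls 1 to 5 and at 0.881, 1.36 and 2.30 CPM (lowest, median, highest) in LOS. LOS 1 exceeded control 3, the other LOS libraries were below every control, and the log2 fold change was -1.36 ± 0.32 (unadjusted p = 0.00139). EBF3 itself went from 23.9 to 9.96 CPM (log2 fold change -1.53), and locus and gene correlated over the 11 libraries (r = 0.88). Both were lower on average in LOS, so this r takes in the difference between the groups.

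MSTRG.21318, inside ARHGAP22 on chromosome 28, also followed its host, on 5 to 26 counts per library. It ranged from 0.635 to 1.28 CPM in controls and 0.317 to 0.807 CPM in LOS (-1.04 ± 0.32), ARHGAP22 averaged 32.3 and 18.6 CPM (-0.82), and the correlation between them was 0.87. Here too r takes in the difference between the groups. MSTRG.2560 (chr3:42301275-42304851, plus strand) starts 29 bp past the end of DPH5, a diphthamide synthesis gene, on the same strand. It was at 11.6, 13.4, 9.51, 10.5 and 9.18 CPM in controls and 7.86, 8.74 and 8.89 CPM (lowest, median, highest) in LOS, with no overlap and little spread within LOS (-0.35 ± 0.10).

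MSTRG.1574, 1496 bp upstream of ICA1L on chromosome 2, did not overlap either, at 1.48 to 2.12 CPM in controls and 0.831 to 1.38 CPM in LOS (-0.63 ± 0.19). MSTRG.4764 lies 269 bp downstream of C5H12orf45 on chromosome 5 and had a fold change of -1.03 ± 0.32 where its neighbour had 0.21. The others were MSTRG.4576 on chromosome 5 (-0.80 ± 0.24), MSTRG.17919 inside BRF1, a subunit of an RNA polymerase III initiation factor (-0.80 ± 0.24), and MSTRG.1998 downstream of the lysosomal transporter gene PQLC2 (-1.19 ± 0.37). In each of these 4 the control and LOS ranges overlapped. Apart from the loci in EBF3 and ARHGAP22, the loci described by small p had mixed correlations with a tested nearest gene. These ran from r = -0.63 (MSTRG.4764 with C5H12orf45) to r = 0.71 (MSTRG.5618 with PCDH7).

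Male and female fetuses were compared in the same fit. Of the 3133 tested loci 4 passed an adjusted p of 0.05 (0.128%), all lower in males, against 8 of all rows (0.0472%). All 4 lie on chromosomes 1 to 29 and thus on autosomes of the build. MSTRG.14990 (chr18:39335471-39335769, minus strand, 299 bp) sits opposite to the clathrin adaptor gene AP1G1. It was at 28.9, 34.4, 20.5, 34.98 and 18.5 CPM in the females (controls 1 and 2, LOS 1 to 3) and at 1.29, 1.60 and 2.34 CPM (lowest, median, highest) in the males. No male came near any female, the log2 fold change of male against female was -4.01 ± 0.24 (adjusted p = 2.86e-05), and the call held with each library left out in turn. AP1G1 did not follow it (log2 fold change 0.01, r = -0.16).

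MSTRG.6670 (chr7:42171145-42173059, plus strand), 32458 bp downstream of the olfactory receptor gene OR2T11, was at 1.58 to 7.24 CPM in females and 0.136 to 0.453 CPM in males (-3.40 ± 0.42, adjusted p = 0.0169). MSTRG.19755 (chr25:9733361-9734004, minus strand), opposite to the autophagy gene CLEC16A, was at 1.56 to 3.16 and 0.204 to 0.680 CPM (-2.38 ± 0.32, adjusted p = 0.029). MSTRG.7685 (chr8:73661781-73662305, plus strand), 5017 bp downstream of the mitophagy receptor gene BNIP3L, was at 1.66 to 4.32 and 0.246 to 1.06 CPM (-2.49 ± 0.34, adjusted p = 0.0327). Females and males did not overlap at any of the 3, but the calls were lost in 7, 10 and 9 of the 11 fits without 1 library, and 1 to 3 loci were called in such fits. The assignment of reads that align to several places was not given in the sources used here. Whether these loci share reads with a near-identical copy elsewhere, the X chromosome included, was not tested.

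Other tools gave other counts: DESeq2 called 8 loci (0.255%) against 0.13% of all rows, and limma voom 2 (0.0638%) against 0.0354%. At an unadjusted p under 0.05, 146 loci were found (4.66% against 3.3%), 44 higher in males (1.4% against 1.51%) and 102 lower (3.26% against 1.79%). Levels did not overlap for 23 loci (0.734% against 0.342%), 7 higher in males (0.223% against 0.142%) and 16 lower (0.511% against 0.201%). A change of 1 or more in size was fitted for 68 loci (2.17% against 1.94%). The tested loci as a whole sat lower in males, with a median log2 fold change of -0.08 against -0.0002 for all rows, and 39.6% above 0 against 49.9%. With TMM factors from annotated genes alone that median was -0.09, and with loci scaled among themselves -0.0094.

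**Figure D4:**
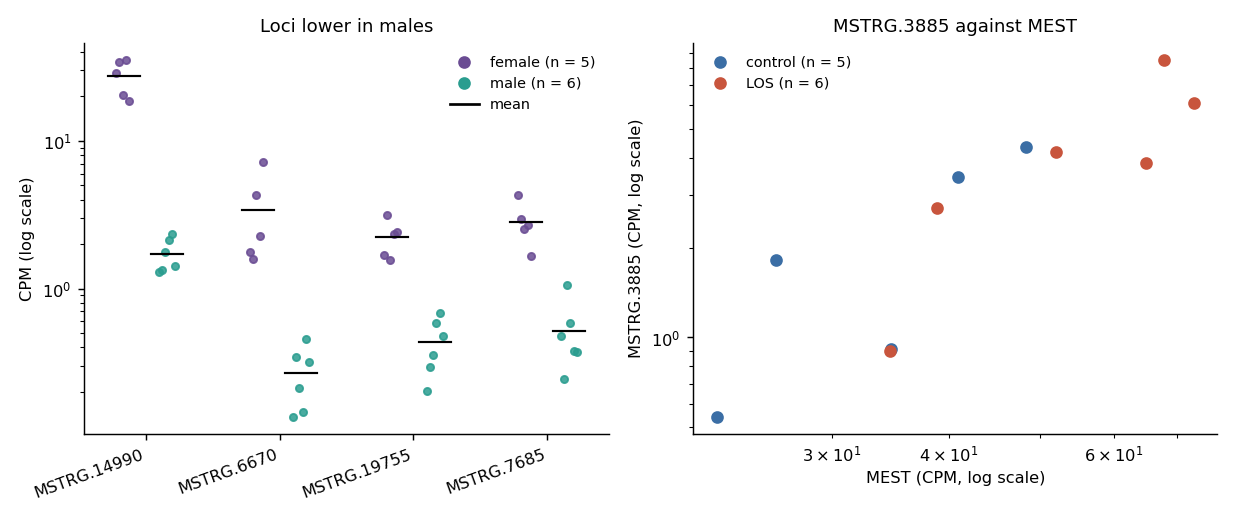
Left, level (CPM, log scale) of the 4 assembled loci called between the sexes, with 1 point per library for 5 females and 6 males and lines at the means; no female and male points overlap. Right, level of MSTRG.3885 against that of the imprinted gene MEST (CPM, log scales), with 1 point per library; the points rise together (r = 0.88 over 11 libraries).

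Covariation with the nearest annotated gene was measured as Pearson r of log2(CPM + 0.5) over the 11 libraries for 2690 pairs in which both rows were tested; they involve 1679 genes. Loci rose and fell with their neighbour mainly when they overlapped it on its own strand. The median r was 0.42 for 1595 such pairs and 0.05 for 191 pairs on opposite strands. Outside genes it was 0.30 within 5 kb (517 pairs), 0.18 at 5 to 50 kb (230) and 0.11 beyond 50 kb (157). Over all pairs the median was 0.34 (quartiles 0.03 and 0.60). All pairs share the same 11 libraries, so these are descriptions without a test across pairs.

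The same measure between neighbouring annotated genes was lower for most positions, with a median of 0.13 over 8945 pairs, 0.25 for same-strand overlap, 0.10 for opposite-strand overlap and 0.13 within 5 kb. Between an assembled locus and a gene 20 tested genes away the median was -0.0025 (2679 pairs). An r of 0.8 or more was reached by 10.8% of locus pairs and by 2.88% of annotated pairs. Loci within 5 kb downstream of a gene on its strand had a median r of 0.36 (341 pairs), whereas those downstream on the other strand had one of 0.006 (47 pairs). The values rose with abundance, from a median of 0.26 for loci under 1 CPM through 0.34 for 1 to under 5 CPM to 0.47 for 5 CPM or more, and to 0.61 for same-strand overlap at 5 CPM or more.

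For single pairs, 376 of 2690 (14.0%) passed an adjusted p of 0.05 in the permutation test of r (100000 resamples, adjusted over all pairs), 374 with r above 0 and 2 below. By Spearman's rho 249 passed, and 234 passed both. Same-strand overlap accounted for 297 of the 376. The direction of the fitted difference between LOS and control was shared in 1656 of 2690 pairs (61.6%), in 66.0% of same-strand overlaps, in 51.3% of opposite-strand overlaps and in 50.3% of pairs beyond 50 kb. Neither the share of pairs that passed nor that of shared direction was computed for pairs of annotated genes. Both therefore stand without a reference. Locus and gene are measured in the same libraries, and without exon positions or a stated use of strand, reads of an overlapping gene that were counted in the locus cannot be separated here.

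**Figure D5:**
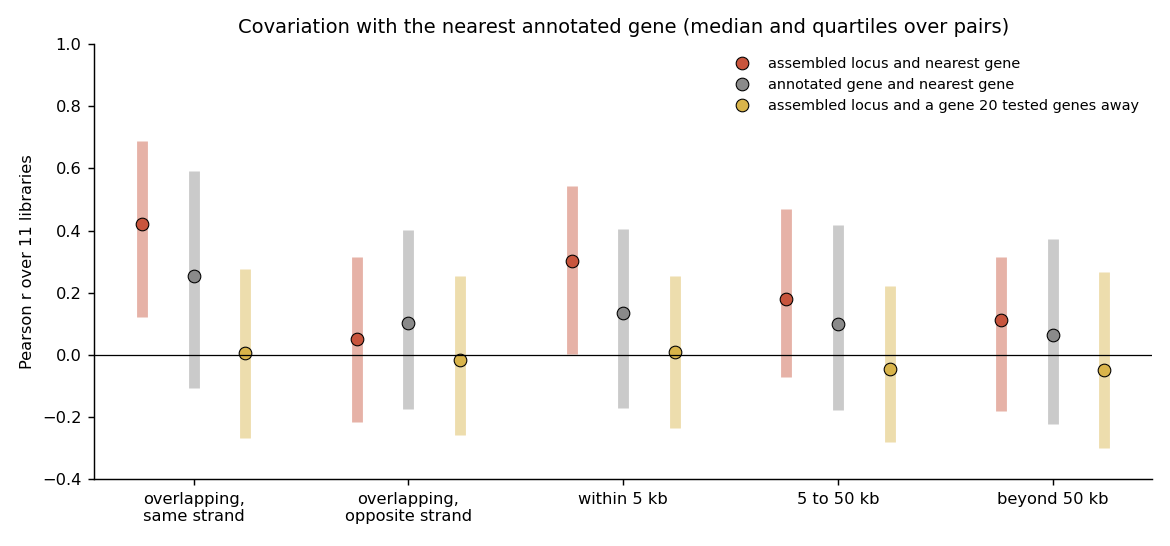
Median (points) and quartiles (bars) of Pearson r over 11 libraries by position, for assembled loci and their nearest annotated gene, for annotated genes and their nearest annotated gene, and for assembled loci and a gene 20 tested genes away. The median for assembled loci is 0.42 for same-strand overlap and 0.05 for opposite-strand overlap, and values for the distant gene lie near 0.

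The closest pairs were intragenic. MSTRG.13310 (chr16:20244638-20246917, minus strand) and MSTRG.13318 (chr16:20341326-20355346, minus strand) lie inside ESRRG and followed it with r = 0.99 each (rho 0.95 and 0.98; permutation p adjusted over 2690 pairs 0.00131 and 0.000868 for r; r = 0.99 and 0.98 without the 2 libraries farthest from the median of ESRRG). MSTRG.13318 was at 13.7, 33.6, 8.29, 24.1 and 3.74 CPM in controls 1 to 5, where ESRRG was at 27.2, 65.4, 19.97, 41.9 and 8.33 CPM. In LOS both were highest in LOS 2 (30.6 and 62.7 CPM). Controls 2 and 5 mark the extremes of locus and gene alike, and neither differed between the groups (log2 fold changes -0.005 and -0.003).

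MSTRG.3698 inside the phosphodiesterase gene PDE1C had r = 0.99 and rho = 0.96 (adjusted permutation p 0.000868 for r, r = 0.99 without the 2 farthest libraries), at 7.48 to 37.8 CPM in controls and 15.9 to 35.9 CPM in LOS. MSTRG.20786 inside STOX2 had r = 0.99 and rho = 0.99 (adjusted permutation p 0.000868, r = 0.97 without the 2 farthest), and locus and gene had like fold changes in LOS (0.84 ± 0.66 and 0.86). The spread between fetuses of a group was large at both loci.

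Only 2 pairs that passed ran in opposite directions. MSTRG.10055 (chr11:46261208-46261772, plus strand) inside POLR1B, a subunit of RNA polymerase I, had r = -0.78 and rho = -0.84 (adjusted permutation p 0.0387 and 0.0326), and r = -0.60 without the 2 libraries farthest from the median. MSTRG.21715 (chr29:44805664-44810643, minus strand), opposite to C29H11orf80, had r = -0.77 and rho = -0.82 (adjusted permutation p 0.033 and 0.041), and r = -0.79 without the 2 farthest. Its level was 8.93 ± 3.11 CPM in controls and 7.15 ± 2.01 in LOS, where C29H11orf80 averaged 5.78 and 9.51 CPM.

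Genes that hold many loci differed in how the loci related to them. In ESRRG the 23 tested loci had a median r of 0.85 with each other and 0.92 with the gene. In BMPR1B 26 loci had medians of 0.76 and 0.84, in PDE4D 14 loci 0.76 and 0.84, in PRKG1 7 loci 0.87 and 0.91, and in TMEM132D 6 loci 0.77 and 0.91. Loci and host moved as a unit in these. In AUTS2 the 33 loci had medians of 0.80 and 0.69, and their summed level of 804 to 1817 CPM exceeded the 37.1 to 63.2 CPM of the gene's own row.

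HDAC9, a class IIa histone deacetylase gene on chromosome 4, showed another pattern. Its 10 tested loci had a median r of 0.91 with each other but of 0.08 with the HDAC9 row (range -0.02 to 0.22). Their sum was 46.9, 47.2, 29.2, 97.1 and 28.3 CPM in controls 1 to 5 and 68.7, 27.0, 60.2, 27.4, 37.3 and 31.4 CPM in LOS 1 to 6. The HDAC9 row was at 33.0, 29.5, 23.2, 44.2 and 15.4 CPM and at 34.96, 31.9, 15, 34.3, 33.5 and 51.4 CPM. Control 4 was high for both, but LOS 3 was high for the loci and lowest for the gene, and LOS 6 the reverse. Loci in NR6A1 (7 loci, 0.73 with each other and -0.11 with the gene) and GRID1 (6 loci, 0.68 and -0.03) had the same order of values. The hosts described in this way were picked out after their values were seen.

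Imprinted genes, expressed from 1 parental allele, are known for altered expression in LOS, so loci near them were listed. Of 58 genes in the list 43 had a row, and 24 assembled loci lay within 50 kb of 21 of them. A mean of 1 CPM or more was reached by 10. No locus lay within 50 kb of IGF2R, IGF2 or H19 rows.

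MSTRG.3884 (chr4:94280050-94285586) and MSTRG.3885 (chr4:94285830-94291307) are neighbours on the plus strand, inside the span of the coatomer gene COPG2 but opposite to it. They lie 16267 and 22047 bp past MEST, a paternally expressed imprinted gene on their own strand. MSTRG.3885 was at 3.44, 4.35, 0.543, 1.82 and 0.918 CPM in controls 1 to 5 and at 0.903, 4.01 and 8.46 CPM (lowest, median, highest) in LOS. MEST was at 40.9, 48.3, 22.6, 26.2 and 34.7 CPM in the same controls and at 34.6, 72.9, 64.8, 38.8, 67.8 and 52.1 CPM in LOS 1 to 6. Control 3 was lowest for both, and LOS 1, lowest in LOS for both, lay inside the control range.

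The correlation with MEST was r = 0.88 and rho = 0.93 for MSTRG.3885 (permutation p adjusted over 2699 pairs 0.00922 and 0.00645; r = 0.80 without the 2 farthest libraries) and r = 0.79 and rho = 0.83 for MSTRG.3884 (0.0326 and 0.0358; r = 0.68). With COPG2, which they overlap, r was 0.08 and 0.05. The log2 fold changes of LOS against control were 1.09 ± 0.59 and 0.64 ± 0.45 for the loci and 0.67 ± 0.22 for MEST. The loci and MEST were thus all higher on average in LOS, and r with MEST takes in that difference. Neither locus was called (edgeR adjusted p = 0.932). Over 15 pairs of a locus of 1 CPM or more with a listed gene, r ran from -0.46 (MSTRG.5529 with HERC3) to 0.88. Of these pairs, those with MEST alone passed an adjusted p of 0.05 in the permutation test of r.

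MSTRG.17830 (chr21:65772984-65775290, plus strand, 2307 bp) covers the row of MIR665. It lies 6694 bp from MEG8 and 26951 bp from MEG3, maternally expressed noncoding RNAs on the same strand, and 3171 bp from RTL1 on the other strand. It was at 5.47, 7.60, 4.55, 6.93 and 5.93 CPM in controls and 5.58, 9.95 and 11.1 CPM (lowest, median, highest) in LOS. LOS 1 and LOS 4 lay within the control range and the other LOS libraries above it. The log2 fold change was 0.56 ± 0.20 (edgeR unadjusted p = 0.0176, adjusted p = 0.932). Its r was 0.74 with MEG3 and 0.71 with MEG8 (permutation p adjusted over 2699 pairs 0.0657 and 0.0904).

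The other 7 showed smaller differences. MSTRG.3288 spans 97225 bp in GRB10, an adaptor of insulin and IGF receptors, and averaged 1.08 ± 0.276 CPM in controls and 1.35 ± 0.432 in LOS, with r = 0.69 to GRB10 (permutation p adjusted over 2699 pairs 0.0982; r = 0.48 without the 2 farthest libraries). MSTRG.3546 and MSTRG.3547 in MAGI2 had log2 fold changes of -0.23 ± 0.19 and 0.06 ± 0.15. MSTRG.11848 downstream of BLCAP, MSTRG.5529 near FAM13A, MSTRG.11894 inside IFT52 and MSTRG.8421 near PEX3 had fold changes of 0.15 ± 0.43, 0.10 ± 0.31, 0.03 ± 0.14 and -0.38 ± 0.26. The listed imprinted genes were HERC3 (19112 bp) and NAP1L5 (49723 bp) for MSTRG.5529, L3MBTL1 (43957 bp) for MSTRG.11894 and PHACTR2 (47077 bp) for MSTRG.8421. The sign of 4 of these 7 loci turned when some 1 library was left out.

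The 3 longest loci were not among the 10 of highest mean CPM. MSTRG.1310 (chr2:33528982-34053028, plus strand, 524047 bp) averaged 2.95 ± 1.31 CPM in controls and 4.51 ± 2.91 in LOS and followed the row LOC112442562, 1710 bp away on the same strand (r = 0.95). MSTRG.7452 (380686 bp), which overlaps MAMDC2, averaged 10.6 ± 1.56 and 11.7 ± 2.48 CPM, where the MAMDC2 row was at 0.748 and 0.198 CPM. The 3 loci of 200 bp that come first by name, MSTRG.10552, MSTRG.11107 and MSTRG.1223, had at most 10.02 counts in any library and were not tested.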

How the data were processed

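RNA counts of 11 fibroblast libraries were analysed. The authors deposited expected counts (estimated reads per row, not normalised); 60.7% of the values of assembled loci and 73.9% of those of annotated rows were whole numbers. Per the submitters' processing notes the build was ARS-UCD1.2, and the tools named are edgeR 3.36.0, Picard 2.22.4, GATK, Salmon 0.11.1, Cufflinks 2.2.1, StringTie 2.1.4, SAMtools 1.8, HISAT2 2.1.0 and FastQC 0.11.7. Their roles, the counting rule and strand use were not given in the sources used here. Per the labels' protocols, ribosomal RNA was removed and no step that marks strand is described.

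Counts were rounded and fitted in R 4.3.3 with edgeR 4.0.16 (TMM factors, filterByExpr, quasi-likelihood test, terms for sex and group) over all rows of the table, with Benjamini-Hochberg adjustment at 0.05. Standard errors are the log2 fold change divided by the square root of the F statistic. Position classes come from Start, End and Strand of the table. Values per library were compared by exact permutation tests. Pearson r used log2(CPM + 0.5). Alternatives were DESeq2 1.42.0, limma 3.58.1 voom, each library left out in turn, a replicate block, a fit without sex, and other scaling and filters. The scripts were tested on simulated data.

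Loci named were the 10 of highest mean CPM, every locus called or else the 8 smallest p per direction, the loci called between sexes, the 3 longest and 3 shortest, the 4 highest and 2 lowest r among pairs of 1 CPM or more, and loci of 1 CPM or more near the listed imprinted genes. Members and lists were chosen with earlier results of these data known. Replicate numbers were not treated as pairs. The deposited tables of allelic reads were not used here. Results at 2 named loci are not reported here.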

Additional observations from a re-analysis of the deposited data

Results flagged for a closer look

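In all, 102 groups of libraries were examined. They covered the named loci, the share of counts in the loci and the number of loci with 10 or more counts. Of the groups, 6 (5.88%) had 1 library far from the others. The measure was the gap between it and its neighbour relative to the range of the group. Chance flags about 1 in 20 groups. Control 2 was high at MSTRG.7888 (7445.7 CPM, group median 6218), at MSTRG.20786 (10.32 CPM, median 2.58) and at MSTRG.10055 (2.716 CPM, median 0.836). Control 3 was low at MSTRG.18279 (2539.1 CPM, median 3867) and control 1 was low at MSTRG.22828 (2742.7 CPM, median 3777). LOS 1 was low at MSTRG.3884, opposite to COPG2 and downstream of MEST (1.149 CPM, median 4.198).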

How the results depend on the processing

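For LOS against control, 0 loci were called in the edgeR alternatives (scaling, filters, no sex term, replicate block, each library left out: 0 to 0) and by limma voom, and 1 by DESeq2. Between the sexes DESeq2 called 8 loci, limma voom 2 and the replicate block 0, against 4, and fits without 1 library 1 to 3. In the replicate block the log2 fold changes of male against female were -3.75 (MSTRG.14990), -5.04 (MSTRG.6670), -3.30 (MSTRG.19755) and -2.13 (MSTRG.7685), against -4.01, -3.40, -2.38 and -2.49 without it. The edgeR adjusted p in the block were 0.718, 0.718, 0.718 and 0.724. That fit left out LOS 6, and only replicate number 3 held both sexes (control 3 male, LOS 3 female). Its sex term thus rested on this pair, so the block cannot decide whether the sex calls hold. The difference in the share of counts ran from -0.0446 to 0.351 percentage points without 1 library, and that in loci with 10 or more counts from -320 to -173.75. The median r with the nearest gene was 0.309 by Spearman's rho and 0.379 with 1 CPM or more in both rows (0.325 to 0.353 without 1 library).

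Signs turned at 4 loci near imprinted genes. In the replicate block the log2 fold changes were -0.26 (MSTRG.11848), -0.0091 (MSTRG.11894), -0.029 (MSTRG.3547) and -0.060 (MSTRG.5529), and without 1 library they ran from -0.044 to 0.296, -0.071 to 0.108, -0.035 to 0.145 and -0.055 to 0.353. The cause was not tested in any of these. Replicate numbers do not pair fetuses: same-numbered libraries correlated at 0.26, 0.16, -0.17, -0.16 and -0.04 in their deviations from the group means. MSTRG.1998 passed the filter in 9 of 11 fits without 1 library. Tests of allelic reads were not run, because the allelic tables as given here hold no row of these loci. Depth limits the faint loci most: 2155 were not tested.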
